A study of Mus musculus with 6 samples.

Results

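The presynaptic release machinery was followed here as 43 genes of the 52636 in the gene table, and as the 41 circular RNAs (circRNAs), of 1488 in the circRNA table, whose host gene is one of the 43. The genes were taken as a list of symbols, and all 43 were matched to a row by their Ensembl identifiers. All 43 also passed the filter on low counts, so none was lost from the comparison. RNA came from the primary visual cortex, V1, of 3 C57BL/6J mice, wild type, whose right eyelids were kept sutured for 3 days up to postnatal day 28. From each mouse 1 library was made of the V1 contralateral to the closed eye (the left hemisphere) and 1 of the V1 ipsilateral to it (the right hemisphere), giving 3 libraries a group. Both groups therefore share genotype, age, anaesthesia and surgery, and both belong to deprived animals. Every contralateral library is from a left hemisphere and every ipsilateral library from a right one. A difference by deprivation and a difference between left and right therefore cannot be told apart. Total RNA was sequenced, so unspliced and circular RNA are in the libraries as well as spliced mRNA.

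Neurotransmitter leaves a nerve terminal when a vesicle fuses with the membrane at the active zone. SNARE proteins on the vesicle and on the terminal membrane pull the membranes together, Unc13 and RIM proteins make docked vesicles ready, and synaptotagmins trigger fusion when calcium enters. Synapsins hold the reserve of vesicles, and clathrin adaptors retrieve vesicle membrane after fusion. In V1, closing one eye for a few days in the critical period weakens the response to that eye, mainly in the contralateral hemisphere, and the question put to these libraries is how RNA differs between the hemispheres.

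Gene reads numbered 17849253 to 32213500 a library, and back-splice reads 13428 to 26867. Fos, an activity-induced transcription factor gene, stood at 7.57, 8.68 and 14.2 CPM (gene counts scaled to library size, with TMM) in the contralateral libraries 1 to 3, against 37.3, 39.3 and 46.7 CPM in the ipsilateral ones (log2 fold change -2.02, SE 0.21, adjusted p = 0.00263 in edgeR's quasi-likelihood test). The labelled sides thus differed in an activity gene in every mouse. Each of the 8 neuron and 8 excitatory neuron markers was detected. The mitochondrial ribosomal RNA mt-Rnr1 split the libraries across the hemispheres, with 28.8 CPM in contralateral 1 and 35.9 and 14.5 CPM in ipsilateral 1 and 3, against 2243 and 5801 CPM in contralateral 2 and 3 and 5034 CPM in ipsilateral 2. This set of high libraries holds both sides of mouse 2, neither side of mouse 1 and the contralateral side of mouse 3.

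Levels of the genes per kilobase of exon spanned more than 2 orders of magnitude. Highest was Cplx2, which encodes a complexin that clamps and then promotes SNARE fusion, with 248 ± 3.36 CPM per kb in contralateral and 233 ± 37.3 CPM per kb in ipsilateral V1 (SD, n = 3 each). Snap25, a SNARE of the terminal membrane, followed with 184 ± 38.9 CPM per kb in contralateral and 236 ± 16.2 CPM per kb in ipsilateral V1. Syt1, the main calcium sensor of fast release, had 187 ± 40.1 and 222 ± 10.2 CPM per kb. Cplx2 stood above the other two in contralateral V1, and in ipsilateral V1 the SDs of the 3 overlapped. The median gene of the set had 39.9 CPM per kb. At the low end stood Syn3, a synapsin, with 1.50 ± 0.14 CPM per kb in contralateral and 1.34 ± 0.14 CPM per kb in ipsilateral V1. Above it came Sv2c, which encodes a vesicle glycoprotein, with 2.15 ± 0.27 and 2.94 ± 0.34 CPM per kb, and Synpr, which encodes the vesicle membrane protein synaptoporin, with 4.40 ± 0.35 and 5.69 ± 0.79 CPM per kb.

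**Figure D1:**
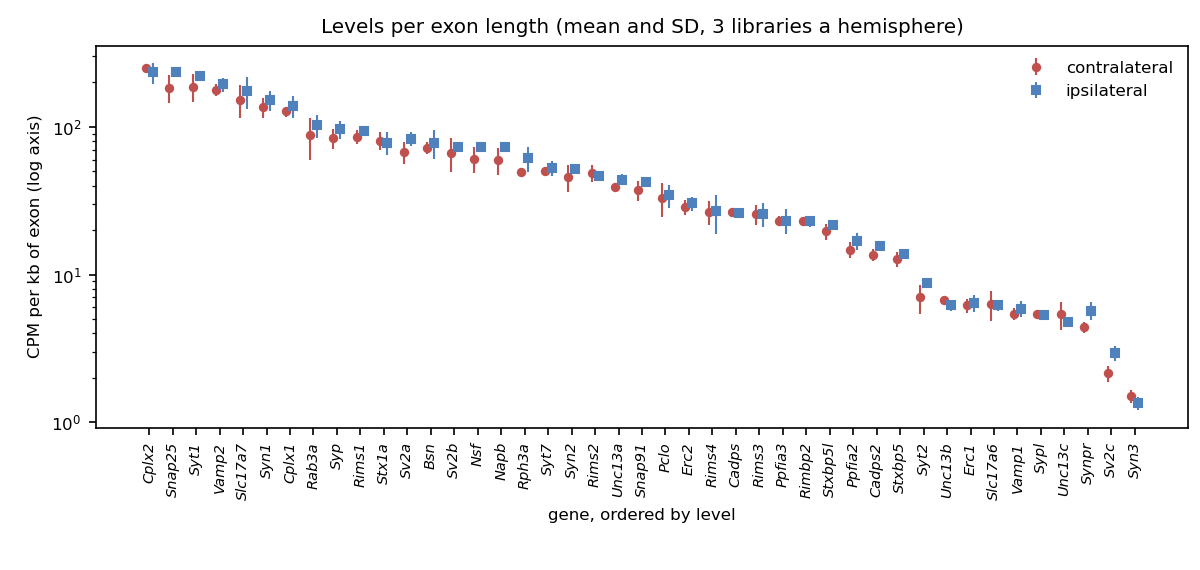
Level of each of the 43 genes, in CPM per kilobase of exon on a log axis, ordered from high to low. Red circles are the mean of 3 contralateral libraries and blue squares the mean of 3 ipsilateral libraries, with SD bars; the order runs from Cplx2 at 248 and 233 to Syn3 at 1.50 and 1.34.

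Several families had one dominant member. Slc17a7, which loads vesicles with glutamate in cortical neurons, had 25.9 times the level per kb of Slc17a6, the transporter typical of thalamic neurons. Vamp2, the vesicle SNARE, had 32.9 times the level of Vamp1, Syt1 26.1 times that of Syt2, and Syn1 101 times that of Syn3. Sv2a had 29.7 times the level of Sv2c but was close to Sv2b, at 1.08 times. Among active zone genes Rims1 had 1.89 times the level of Rims2, and Erc2 had 4.68 times that of Erc1. The level of Syn3 has a limit of its own: 14.1% of its exon bases lie opposite Timp3, a gene at 59.3 CPM against 17.5 CPM for Syn3, and whether the counts were made by strand is not given in the sources used here. Of the other genes, 24.5% of the exon bases of Ppfia2, 16.8% of those of Syp and 11.8% of those of Erc1 lie opposite another gene, each time one at 3.01 CPM or less.

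Set against the ipsilateral V1, most release machinery genes had estimates slightly below 0 in contralateral V1, and none was called. No test of the set as a whole was made. Of the 43 genes 32 had a log2 fold change below 0 (74.4%), with a median of -0.12, beside 44.6% and a median of 0.03 over all 20473 genes tested. Part of this difference goes with level: among the 7949 genes at or above the level of the lowest release gene, 61.8% lay below 0, with a median of -0.05. The lowest release gene by CPM, Syn3, lies above 61.2% of the tested genes and the highest, Syt1, above 99.9%. That background is therefore not matched in level to the set, and no matched one was computed. None of the 43 passed an adjusted p of 0.05 in edgeR's quasi-likelihood test, where the lowest adjusted p was 0.676 and 26 genes of all tested passed (0.127%). At an unadjusted p under 0.05 stood 2 of the 43, Sv2c and Synpr, both lower, against 2.87% of all genes lower at that p. DESeq2 also called 0 of the 43, against 89 of all genes (0.435%), and had 4 of the 43 at an unadjusted p under 0.05, all lower, against 3.05% of all genes.

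With the mouse as a block, which compares the hemispheres within each animal, edgeR again called 0 of the 43, while 183 of all genes passed (0.894%). The lowest adjusted p was then 0.110, for Sv2c, and 8 of the 43 had an unadjusted p under 0.05, all lower: Sv2c, Synpr, Syt2, Sv2a, Snap25, Rph3a, Napb and Nsf. Of all genes 6.94% were lower at that p in the same fit. This share, like the 2.87% and 3.05% of the fits above, covers tested genes of every level. None was computed for genes as abundant as the release genes. In the fit without the block, standard errors of the 43 log2 fold changes ran from 0.12 to 0.21. Every 95% interval of that fit lay within 1 log2 unit of 0, from -0.78 at the lowest bound to 0.51 at the highest. A doubling or halving thus lies outside the interval of each gene in that fit. In bulk tissue, fewer cells of a type and less RNA per cell cannot be told apart.

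The mice differed. The median log2 difference of the 43 genes was -0.11 in mouse 1, -0.29 in mouse 2 and 0.04 in mouse 3, with 36, 34 and 19 genes lower. Lower in each of 3 mice were 16 genes (37.2%), against 17.3% of all genes and 30.5% of those at or above the lowest release gene's level. Higher in each of 3 mice were 2, Unc13b and Cadps (4.65%), against 19.2% of all genes and 13.5% of those at or above that level. Every contralateral library lay below every ipsilateral one for 5 genes, Sv2c, Synpr, Syt2, Napb and Nsf. The same held for 6.29% of all genes and for 918 of the 7949 genes at or above the lowest release gene's level (11.5%), so the count of 5 lies near the background.

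Library contralateral 2 was the lowest of the 6 for 20 of the 43 genes, and for 3191 of the 7949 genes at or above the lowest release gene's level. Without it the median of the 43 was -0.06 with 30 genes lower, where 47.3% of all genes were lower. Leaving out both libraries of mouse 2 gave a median of -0.04 with 28 lower, where 47.5% of all genes were lower. Within the libraries low in mt-Rnr1 the median was -0.04 (26 lower, against 49.7% of all genes). Within those high in mt-Rnr1 it was -0.17 (34 lower, against 47.7% of all genes). Each mt-Rnr1 set held 1 library of 1 side and 2 of the other, so its values are effect sizes only. The summed level of the 43 genes was 16706, 14333 and 17094 CPM in contralateral 1 to 3, against 18482, 18313 and 16521 CPM in ipsilateral 1 to 3. Contralateral 2 was also the highest library in the sum of 4 nuclear RNAs (Malat1, Meg3, Miat and Snhg14), with 12325, 17109 and 13679 CPM in the contralateral libraries and 11843, 12748 and 13844 CPM in the ipsilateral ones. Markers of oligodendrocytes, the myelinating cells, summed to 4932, 6276 and 3725 CPM in contralateral and 5216, 6475 and 5435 CPM in ipsilateral V1, with 9 of 9 below 0 and a median of -0.25. Markers of microglia, the resident immune cells, summed to 362, 411 and 308 CPM in contralateral and 364, 324 and 278 CPM in ipsilateral V1, with 0 of 8 below 0 and a median of 0.16. General neuron markers were Rbfox3, Tubb3, Map2, Nefl, Nefm, Eno2, Snhg11 and Stmn2. They summed to 5311, 6054 and 5819 CPM in contralateral and 5238, 5723 and 5561 CPM in ipsilateral V1, with 4 of 8 below 0 and a median of -0.10. The neuron sum was higher in contralateral V1 in each mouse, but a sum follows its most abundant genes, and the median marker lay below 0. None of the oligodendrocyte, microglia or neuron markers was called. Astrocyte markers summed to 9382, 11829 and 9918 CPM in contralateral and 10302, 10044 and 9821 CPM in ipsilateral V1, with 2 of 8 below 0. Endothelial and mural markers summed to 332, 474 and 365 CPM in contralateral and 344, 396 and 348 CPM in ipsilateral V1, with 1 of 7 below 0. Contralateral 2 was the highest library in both sums. The part of nuclear RNA and of these cell types in the differences was not tested.

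**Figure D2:**
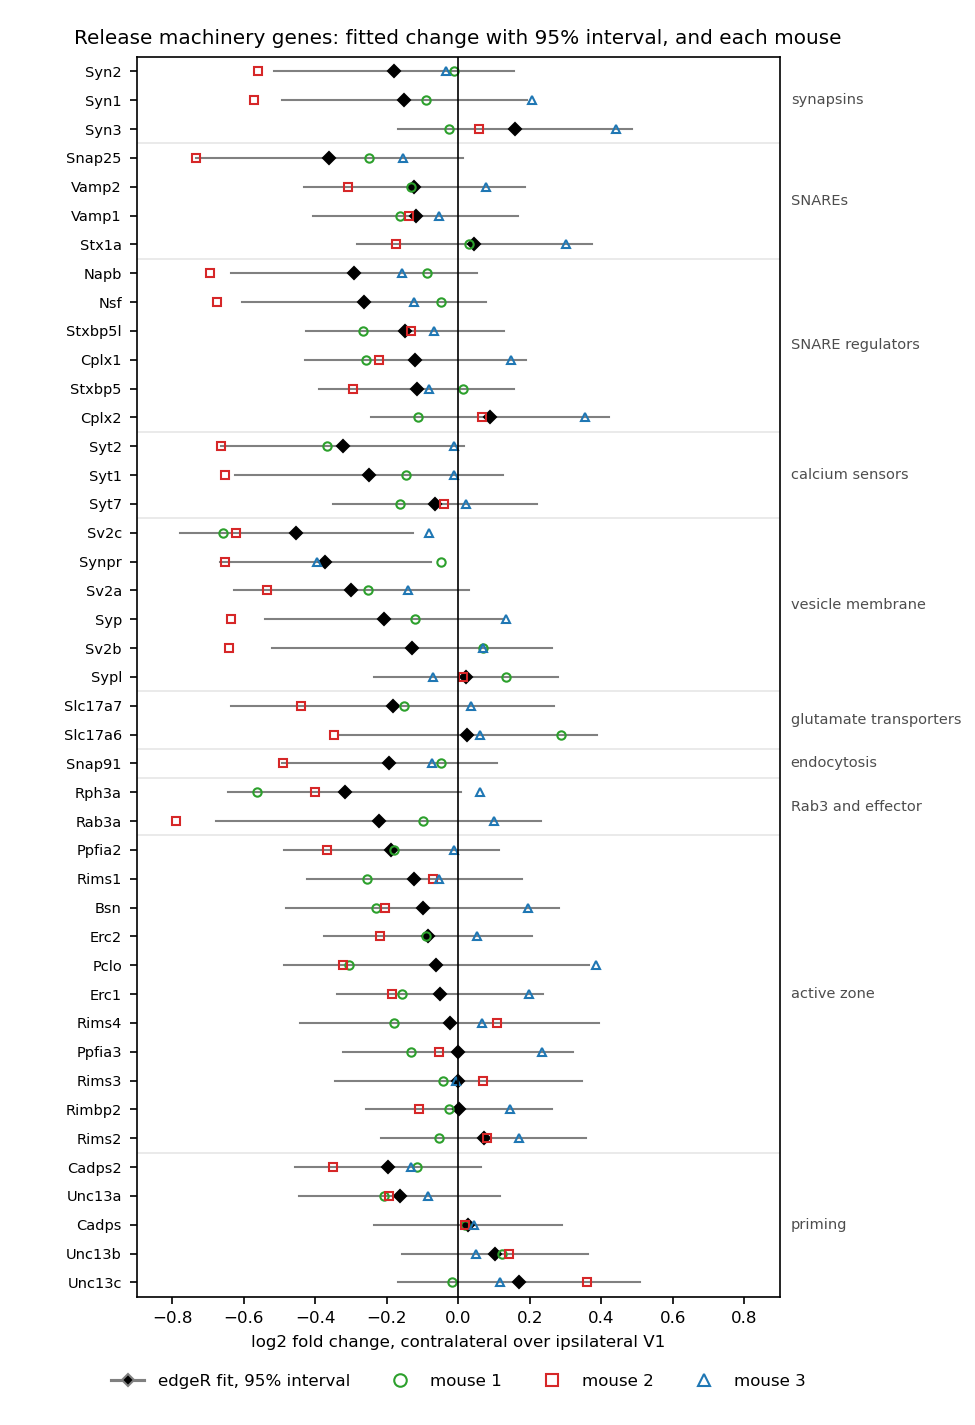
Log2 fold change of each gene, contralateral over ipsilateral V1, grouped by role. Black diamonds with grey lines are edgeR's estimates with 95% intervals, and open symbols are the log2 differences within each mouse; most of the red squares (mouse 2, median -0.29) lie left of 0 and the blue triangles (mouse 3, median 0.04) lie around it.

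**Figure D3:**
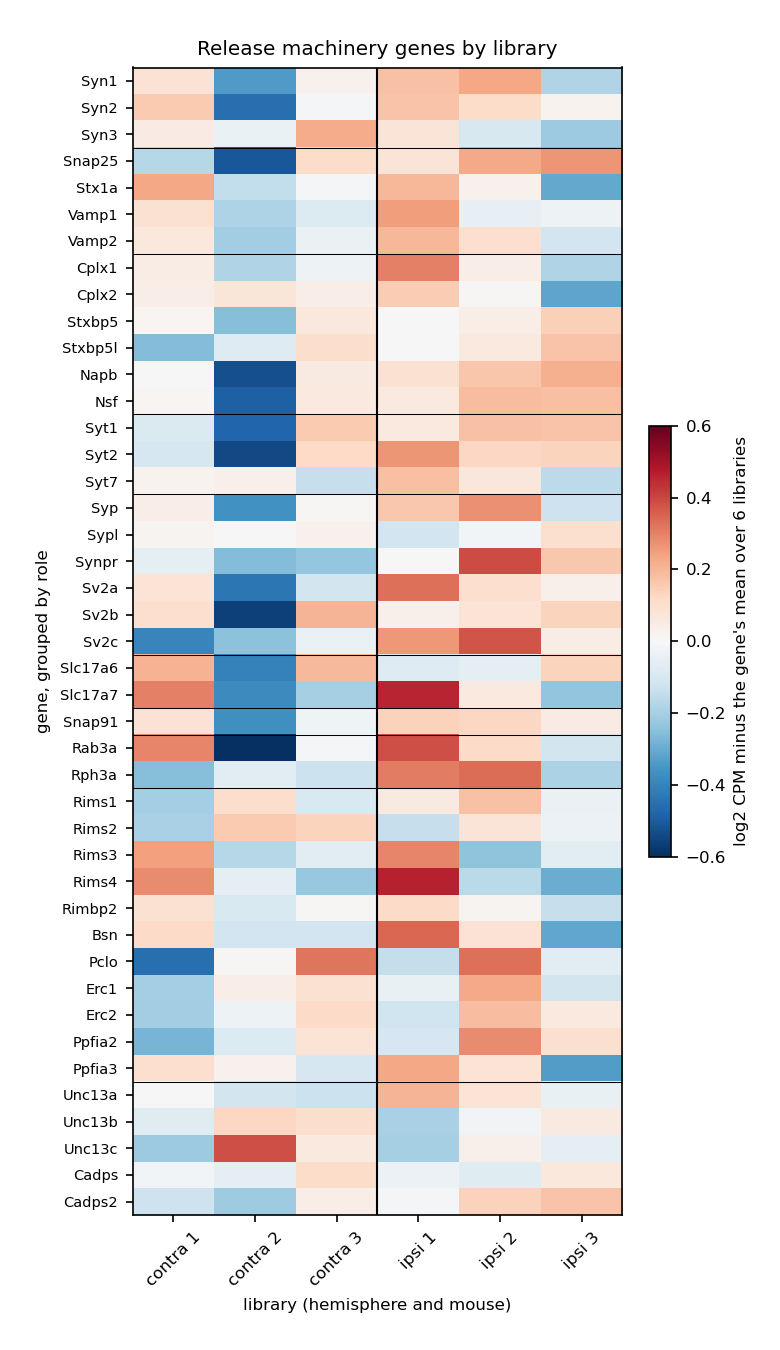
Log2 CPM of each gene (rows, grouped by role) in each library (columns), minus the gene's mean over 6 libraries. Blue is below and red above the mean; contralateral 2 is the lowest library for 20 of the 43 genes, and most of its low cells are in the upper groups rather than the active zone group.

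Of the 3 synapsin genes, whose products tether vesicles to the cytoskeleton, 2 were lower, and the log2 fold changes ran from -0.18 to 0.16. Syn3 was the one above 0, at 0.16 (SE 0.15, adjusted p = 0.880), with 18.02, 16.9 and 20.3 CPM in contralateral 1 to 3 and 18.3, 16.3 and 14.97 CPM in ipsilateral 1 to 3.

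Of the 4 SNARE genes 3 were lower. Snap25 had 1244, 986 and 1514 CPM in the contralateral libraries and 1478, 1641 and 1687 CPM in the ipsilateral ones. It was lower in each mouse, though contralateral 3 stood above ipsilateral 1, and its log2 fold change was -0.36 (SE 0.17, adjusted p = 0.806). Without contralateral 2 it was -0.22. Stx1a, the syntaxin that pairs with Snap25 in the terminal membrane, and the vesicle SNAREs Vamp1 and Vamp2 lay between -0.12 and 0.05.

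Among 6 genes that regulate SNAREs, 5 were lower. Napb, an adaptor that brings the disassembly enzyme to spent SNARE complexes, had 463, 321 and 480.0 CPM in contralateral and 493, 519 and 535 CPM in ipsilateral V1. Nsf, the ATPase that takes those complexes apart, had 557, 394 and 575 CPM in contralateral and 576, 628 and 626 CPM in ipsilateral V1. The groups did not overlap for either gene, but contralateral 1 and 3 lay close to the ipsilateral libraries. The log2 fold changes were -0.29 for Napb and -0.26 for Nsf (adjusted p = 0.824 and 0.830), and without contralateral 2 they were -0.13 and -0.11. Cplx1 (-0.12) and Cplx2 (0.09), the complexins, lay on either side of 0, and the tomosyn genes Stxbp5 and Stxbp5l, whose products inhibit SNARE assembly, were both lower.

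All 3 calcium sensor genes were lower. Syt2, the sensor of fast release found in cortex mainly in terminals of parvalbumin interneurons, had 55.1, 40.7 and 64.4 CPM in contralateral and 71.0, 64.5 and 64.9 CPM in ipsilateral V1. The groups were apart by a hair, since contralateral 3 (64.35) and ipsilateral 2 (64.51) almost met, and the log2 fold change was -0.32 (SE 0.16, adjusted p = 0.807). It was -0.16 without contralateral 2. Markers of parvalbumin interneurons summed to 363, 288 and 331 CPM in contralateral and 429, 357 and 333 CPM in ipsilateral V1, with 6 of 6 below 0 and none called. Syt1 had 1588, 1215 and 1881 CPM in contralateral and 1757, 1909 and 1899 CPM in ipsilateral V1, a log2 fold change of -0.25 (adjusted p = 0.844) that was -0.10 without contralateral 2. Syt7, the slow sensor of asynchronous release, had a 95% interval from -0.35 to 0.22.

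The vesicle membrane genes held the lowest values of the set. Sv2c had 18.4, 20.5 and 23.6 CPM in contralateral and 29.1, 31.5 and 24.97 CPM in ipsilateral V1. It was lower in each mouse and the groups did not overlap. The log2 fold change was -0.45 (SE 0.15, 95% interval -0.78 to -0.13, unadjusted p = 0.0103, adjusted p = 0.676), and -0.44 without contralateral 2. Synpr had 45.3, 39.2 and 39.98 CPM in contralateral and 46.9, 61.6 and 52.5 CPM in ipsilateral V1, again without overlap. Its log2 fold change was -0.37 (SE 0.14, unadjusted p = 0.0174, adjusted p = 0.744), and -0.33 without contralateral 2. Without both libraries of mouse 2 the values were -0.36 for Sv2c and -0.22 for Synpr. Within the libraries low and high in mt-Rnr1, Sv2c was at -0.56 and -0.52, while Synpr was at -0.14 and -0.64.

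Sv2a, the broadly used paralog of Sv2c and the binding site of the antiepileptic levetiracetam, had 364, 255 and 319 CPM in contralateral and 433, 369 and 352 CPM in ipsilateral V1. Contralateral 1 stood above ipsilateral 3, and the log2 fold change was -0.30 (SE 0.15, adjusted p = 0.820). It was -0.17 without contralateral 2. Of the other vesicle membrane genes, Syp and Sv2b were lower and Sypl had an estimate of 0.02. Without contralateral 2 Sv2b was at 0.07.

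Both Sv2c and Synpr are genes of restricted expression, unlike Syt1 or Snap25. Markers of GABAergic interneurons summed to 478, 456 and 541 CPM in contralateral and 721, 649 and 641 CPM in ipsilateral V1, with 10 of 12 below 0 and no overlap between the groups. None of the 12 passed without the mouse block and 4 passed as lower with it. Excitatory neuron markers summed to 5122, 4927 and 4826 CPM in contralateral and 5127, 4729 and 3865 CPM in ipsilateral V1, with 5 of 8 below 0. The part of interneuron RNA in the values of Sv2c, Synpr and Syt2 was not tested.

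The glutamate transporters, which fill vesicles, did not separate the sides. Slc17a7 had 1064, 662 and 750.1 CPM in contralateral and 1182, 897 and 732 CPM in ipsilateral V1 (log2 fold change -0.18, SE 0.21, and -0.05 without contralateral 2). Slc17a6 had 38.6, 25.2 and 38.2 CPM in contralateral and 31.6, 32.0 and 36.6 CPM in ipsilateral V1 (0.02, SE 0.17). Snap91, a clathrin adaptor of vesicle retrieval, lay at -0.19 (SE 0.14, adjusted p = 0.855), and at -0.07 without contralateral 2.

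Rab3a, the vesicle GTPase that binds RIM, had 252, 129 and 204 CPM in contralateral and 269.6, 223 and 191 CPM in ipsilateral V1. The low value was again contralateral 2, and the log2 fold change of -0.22 (SE 0.21) became 0.0022 without it. Its effector rabphilin, encoded by Rph3a, had 211, 241 and 231 CPM in contralateral and 312, 318 and 221 CPM in ipsilateral V1. Here ipsilateral 3 fell among the contralateral libraries, and the log2 fold change was -0.32 (SE 0.15, adjusted p = 0.804), or -0.36 without contralateral 2.

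**Figure D4:**
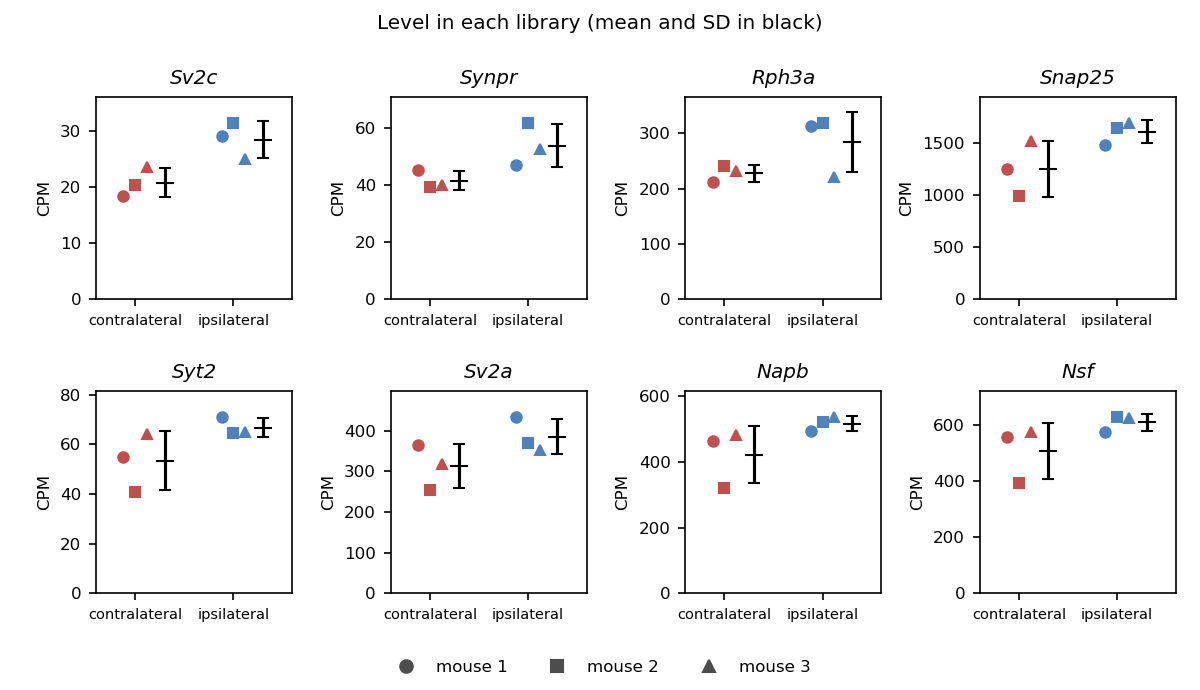
CPM of the 8 genes with the smallest unadjusted p, in each library. Red symbols are contralateral and blue symbols ipsilateral V1, the symbol shape gives the mouse, and black bars are mean and SD of 3 libraries; in 5 of the panels (Sv2c, Synpr, Syt2, Napb and Nsf) the sides do not overlap.

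The 11 active zone scaffold genes had a median of -0.05 and a range from -0.19 to 0.07. They include the large scaffolds Bsn and Pclo, the RIM genes Rims1 to Rims4, Rimbp2, which ties RIM to calcium channels, Erc1 and Erc2, and the liprin genes Ppfia2 and Ppfia3. All 11 were lower in mouse 1, 8 in mouse 2 and 3 in mouse 3, and contralateral 2 was the lowest library for 0 of the 11. Rims1 had 569, 705 and 615 CPM in contralateral and 679.5, 739 and 638 CPM in ipsilateral V1 (log2 fold change -0.12, SE 0.14). Rims2 had 208, 265 and 261 CPM in contralateral and 216, 251 and 232 CPM in ipsilateral V1 (0.07, SE 0.13). In both genes the library values of the sides overlapped.

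Of the 5 priming genes 2 were lower. Unc13a, the main priming factor of cortical glutamatergic terminals, lay at -0.16 (SE 0.13) and was lower in each mouse. Unc13c had the highest estimate of the set, 0.17 (SE 0.16, adjusted p = 0.876), with 37.9, 57.7 and 45.9 CPM in contralateral and 38.4, 45.005 and 42.4 CPM in ipsilateral V1. That estimate rests on contralateral 2 and was -0.0011 without it. Cadps, which primes dense-core vesicles, lay at 0.03 (SE 0.12), and Cadps2, its paralog, at -0.20 (SE 0.12, adjusted p = 0.830).

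Ratios between paralogs within a library do not depend on scaling. In 4 of 14 pairs the sides did not overlap. An exact permutation test of 3 libraries against 3 cannot go below 0.1, no test of the ratios was made, and no background share was computed for such pairs, so the 4 are given as values only. The log2 ratio of Cadps2 to Cadps was -1.62, -1.67 and -1.58 in contralateral and -1.49, -1.30 and -1.41 in ipsilateral V1. That of Cplx1 to Cplx2 was -2.03, -2.29 and -2.11 in contralateral and -1.88, -2.001 and -1.90 in ipsilateral V1. Both ratios were thus lower in contralateral V1 in each mouse. The ratio of Rims2 to Rims1 lay the other way, at -1.45, -1.41 and -1.24 in contralateral and -1.65, -1.56 and -1.46 in ipsilateral V1. So did that of Syn3 to Syn1, at -4.79, -4.45 and -4.56 in contralateral and -4.86, -5.08 and -4.79 in ipsilateral V1, where Timp3 on the opposite strand limits the reading. The Slc17a6 to Slc17a7, Vamp1 to Vamp2 and Syt2 to Syt1 ratios overlapped, as did the other 7.

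A circRNA forms when the end of an exon is spliced back to the start of the same or an earlier exon, and its reads are counted at that junction. The 41 circRNAs came from 14 of the 43 genes and took 2.04% to 2.99% of a library's back-splice reads. Rims2 gave 8, Rims1 6, Erc2 5, Syt1 and Cadps 4 each and Stxbp5l 3. Stxbp5, Syt7 and Syn2 gave 2 each, and Sv2b, Snap91, Pclo, Rimbp2 and Unc13b 1 each. The hosts were long genes, with a median span of 238 kb against 49.1 kb for the 29 genes without a circRNA in the table. Of 22 genes over 100 kb 13 were hosts, and of 21 shorter ones 1 was, Syt7. The 2 Syt7 calls are 231 bases each at almost the same place (chr19:10448597-10448827 and chr19:10448593-10448823). No end of either lies at an annotated exon end, so they may be 1 junction called 2 times. Both ends of 35 of the 41 lay at annotated exon ends, and 33 of those 35 lay within coding sequence.

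The junction sequences of 5 circRNAs on which the results below turn are given 5′ to 3′ on the host's strand, from GENCODE M21 transcripts (GRCm38). The last 15 bases of the donor exon are in lower case and the first 15 of the acceptor exon in capitals, so the change of case marks the back-splice. Exons are numbered from the 5′ end of the transcript used.
Rims2 exons 20 to 22 (chr15:39566943-39616510, plus strand, ENSMUST00000042917.9): aactcagccaaaccgGTGCTATGGATATAG
Rims1 exons 30 to 32 (chr1:22346293-22379540, minus strand, ENSMUST00000097811.9): agctcagccagacagCGAGCTTAGTAGTGG
Erc2 exons 13 to 19 (chr14:28040343-28317314, plus strand, ENSMUST00000210135.1): gttttgttttgagggGCACATAATATTGAA
Sv2b exons 5 to 9 (chr7:75136298-75149088, minus strand, ENSMUST00000165175.7): gcttgtgaacgataaGCTGGGGCTTCAGCA
Snap91 exons 3 to 7 (chr9:86835109-86839654, minus strand, ENSMUST00000098495.9): tcattaacttacttgATTTGATCCAGGCTA

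The Rims2 and Rims1 circles resemble each other. Both take 3 exons within the coding sequence and both come to 516 bases when spliced, with exons of 101, 173 and 242 bases in Rims2 and 113, 167 and 236 bases in Rims1. The last 15 donor bases are identical at 12 positions. In each gene the donor at the end of the last exon served several circles: that of Rims2 was used by 4 circRNAs with 568 reads over all libraries, and that of Rims1 by 3 with 773 reads. These circles therefore share a splice site and are not independent of each other.

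The Rims2 circle of exons 20 to 22 was the most abundant of the 41, with 41, 80 and 76 reads in contralateral and 38, 115 and 70 reads in ipsilateral V1. Per 1000 gene reads of Rims2 that is 9.81, 16.2 and 13.4 in contralateral and 8.78, 14.9 and 12.4 in ipsilateral V1. The sides overlapped, and the log2 fold change of the circle was 0.06 (SE 0.27), that of its ratio to the host 0.13 (SE 0.48). The Rims1 circle of exons 30 to 32 had 24, 68 and 75 reads in contralateral and 34, 119 and 43 reads in ipsilateral V1 (0.02, SE 0.28). A further Rims1 circle shares its donor but begins where M21 has no exon (chr1:22346293-22393948), with 20, 90 and 109 reads in contralateral and 25, 94 and 57 reads in ipsilateral V1 (0.52, SE 0.27, unadjusted p = 0.0585). For both Rims2 exons 20 to 22 and this Rims1 circle the table also lists a call at the same coordinates on the other strand. Those had 3, 3 and 1 reads in contralateral and 6, 5 and 3 in ipsilateral V1 for Rims2, and 3, 3 and 1 reads in contralateral and 4, 3 and 2 in ipsilateral V1 for Rims1.

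Summed over circles, Rims2 gave 17.2, 27.5 and 27.4 back-splice reads per 1000 gene reads in contralateral and 16.6, 23.9 and 21.6 in ipsilateral V1, the highest of the 14 hosts. Rims1 gave 6.56, 14.7 and 16.4 in contralateral and 6.76, 10.5 and 8.23 in ipsilateral V1. In both genes library 1 of each side was the lowest. Syt1, among the highest of the 43 genes in level per kb, gave 0.31, 0.93 and 0.49 in contralateral and 0.37, 0.59 and 0.63 in ipsilateral V1.

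Erc2 exons 13 to 19 had 26, 44 and 48 reads in contralateral and 22, 75 and 45 reads in ipsilateral V1 (-0.02, SE 0.32). Sv2b exons 5 to 9 had 31, 41 and 43 reads in contralateral and 21, 43 and 32 reads in ipsilateral V1 (0.47, SE 0.34). Its ratio to Sv2b reads was 2.48, 5.59 and 2.97 per 1000 in contralateral and 1.77, 2.27 and 2.06 per 1000 in ipsilateral V1, above in every contralateral library (log2 difference 0.77, SE 0.56, unadjusted p = 0.188). The high value, contralateral 2, is also the library with the lowest Sv2b level.

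The circle of Snap91 exons 3 to 7 had the smallest p of the set in the fit without the mouse block. It had 5, 19 and 4 reads in contralateral and 1, 4 and 4 reads in ipsilateral V1. The log2 fold change was 1.81 (SE 0.74, unadjusted p = 0.0148, adjusted p = 0.999 in edgeR's quasi-likelihood test), and 0.83 without contralateral 2, which holds most of the contralateral reads. Rims1 exons 30 to 31 had 10, 22 and 19 reads in contralateral and 14, 5 and 8 reads in ipsilateral V1 (0.97, SE 0.52, unadjusted p = 0.0591). It was 0.53 without ipsilateral 2 and lower in mouse 1, so the mice did not agree in direction by raw reads. Of the 10 circRNAs with the most reads the others were Rims2 exons 21 to 22, 14 to 17 and 5 to 13 and Rims1 exons 6 to 9. They had 3 to 28 reads a library in contralateral and 8 to 21 in ipsilateral V1, with log2 fold changes from -0.12 to 0.29.

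Of the 41 circRNAs 40 were tested and 0 were called in edgeR's quasi-likelihood test, as were 0 of all 1468 (0.0%), with 1 of the 40 and 52 of the 1468 at an unadjusted p under 0.05. DESeq2 also called 0 of all tested, with 17 at an unadjusted p under 0.05, and edgeR with the mouse block called 0, with 3 and 66 at an unadjusted p under 0.05. In the fit without the block the median log2 fold change was 0.04 over the 40, with 17 lower and 23 higher, and -0.02 over all. Of the 1434 ratios of circle to host 0 passed in limma (0.0%), with 57 at an unadjusted p under 0.05, 1 of them among the 41. The median log2 difference in ratio was 0.24 over the 41 and 0.16 over all, with 9 of 41 below 0 against 39.3% of all ratios. The 41 come from 14 hosts, and circles of 1 host share its count as denominator, so these ratios are not independent of each other. A lower host count also raises a ratio, and 32 of the 43 genes had estimates below 0. The part of the host counts in the ratios was not tested. In 3 of the 41, of Sv2b, Snap91 and Rims1 (exons 6 to 32, at 1 to 3 reads a library), every contralateral ratio lay above every ipsilateral one, beside 5.16% of all ratios. Only 10 of the 41 had a mean of 10 or more reads, where standard errors ran from 0.27 to 0.58 log2 units, and among the other 31 they reached 1.18, so a modest difference would not have been seen with this many reads.

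**Figure D5:**
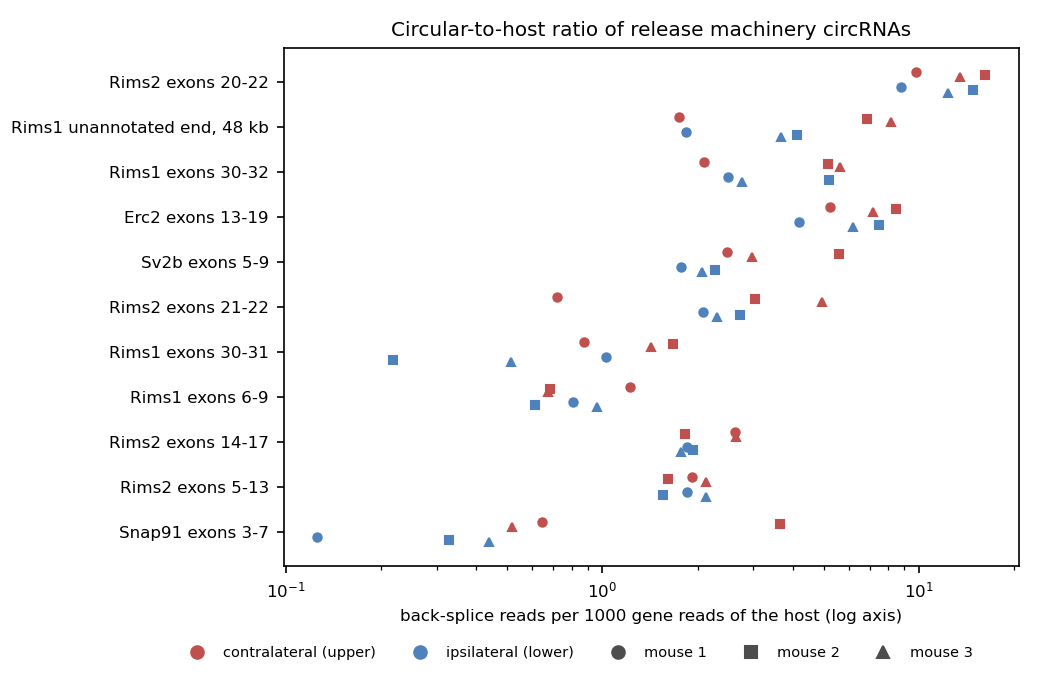
Back-splice reads per 1000 gene reads of the host, on a log axis, for the 10 circRNAs with the most reads and for Snap91 exons 3-7. Red symbols are contralateral (upper row) and blue symbols ipsilateral libraries (lower row), with the mouse as symbol shape; the sides overlap in all but Sv2b exons 5-9 and Snap91 exons 3-7.

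Genes of the wider pathway are read beside the 61.8% below 0, with a median of -0.05, among genes at or above the lowest release gene's level. The lists were not cut at that level, and Slc17a8, for one, lies below it. That share is of all 6 libraries, so it is no background for values without contralateral 2. Of 45 other exocytosis genes 30 were lower (66.7%), with a median of -0.14, or -0.04 without contralateral 2, and none passed in edgeR without the block. They summed to 6266, 4994 and 5955 CPM in contralateral and 6634, 6457 and 5921 CPM in ipsilateral V1, where contralateral 2 was the lowest library and mouse 3 was slightly higher on the contralateral side. With the mouse as a block 1 passed, Syt17, a member of the synaptotagmin family, and it was higher: 47.8, 29.5 and 34.8 CPM in contralateral against 28.4, 26.9 and 21.4 CPM in ipsilateral V1 (log2 fold change 0.55, adjusted p = 0.676 without and 0.0474 with the block). Syt12 (-0.46) and Vamp7 (-0.46) had the next smallest p and did not pass in either fit. Of 17 other genes of the vesicle membrane and of vesicle filling 16 were lower (94.1%), with a median of -0.26, or -0.12 with 13 lower without contralateral 2, and none was called in either fit. Their sum was 3047, 2025 and 2686 CPM in contralateral and 3388, 3037 and 2945 CPM in ipsilateral V1, again lowest in contralateral 2. Slc17a8, a glutamate transporter used outside the main excitatory neurons, had the lowest value, -1.01 (adjusted p = 0.452), with 1.94, 1.29 and 1.99 CPM in contralateral and 4.09, 3.40 and 3.08 CPM in ipsilateral V1. Atp6ap2 (-0.43) and Atp6v1h (-0.36), genes of the proton pump that acidifies vesicles, followed. Of 28 vesicle endocytosis genes 23 were lower (82.1%), with a median of -0.14, or -0.09 with 24 lower without contralateral 2, and none was called in either fit. They summed to 7646, 6185 and 7700 CPM in contralateral and 8259, 8509 and 8135 CPM in ipsilateral V1, with contralateral 2 lowest and no overlap between the sides. Among them were the clathrin adaptor gene Ap2b1 (-0.37) and the uncoating genes Hspa8 (-0.40) and Dnajc6 (-0.31).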

How the data were processed

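Gene values are raw read counts that the authors deposited per Ensembl gene, and circRNA values are back-splice counts they deposited per circRNA, per the file headers. The authors also deposited a normalized circRNA signal, equal to the quantile-normalized counts in all 1488 rows, which was used as an alternative. HISAT2, featureCounts, limma, DESeq2 and the build GRCm38 are named in the submitters' processing notes. Not given in the sources used here are the circRNA caller, its filters and the strand setting of the gene counts. Symbols, exons and junction sequences came from GENCODE M21, which held 52489 of 52636 gene IDs.

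The release machinery list, the other pathway lists and the markers were chosen with earlier results of these data known. Genes were compared with edgeR 4.0.16 (quasi-likelihood, TMM, filterByExpr at a count of 10 and a total of 15, leaving 20473 genes) in R 4.3.3, without a mouse block, with Benjamini-Hochberg adjustment over all genes and a threshold of 0.05. CircRNAs needed at least 2 reads in 3 libraries. Ratios were tested with limma 3.58.1 (trend) on log2((circRNA count + 0.5)/(host count + 0.5)), where host counts may include reads of the circle's exons. DESeq2 1.42.0, the block, other filters and scalings and libraries left out were alternatives. Simulated counts with known changes were also run through the fits. Those changes were larger than the estimates of the release machinery genes, and no simulated library was made to deviate as contralateral 2 did. The simulation therefore does not show how well changes of the size seen here would be found. Figures used matplotlib 3.10.9.

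Both libraries of a number come from 1 mouse, per the labels. Deviations from the group means correlated at 0.555, 0.117 and 0.256 within mice 1 to 3. Every value between mouse 1 and another mouse lay below 0. The deviations of a gene sum to 0 within a group, so these values follow in part from the 0.555 of mouse 1. Contralateral 2 correlated at 0.184 with ipsilateral 3, and contralateral 3 at 0.227 with ipsilateral 2. These correlations thus do not set the pairs of mice 2 and 3 apart, and those pairs rest on the labels. Levels are CPM with TMM scaling, with SD over 3 libraries. All 43 genes may be named. Values in every library were given for the 8 with the smallest p, those with the largest change in each direction, the highest and lowest 3 per kb, and paralogs, and for circRNAs for the 10 with the most reads and those at an unadjusted p under 0.05. The pathway lists name the 3 genes with the smallest p and those that passed. Single values of some other members were chosen after they were seen. No molecular identifiers were used, so errors include counting error but intervals say nothing about PCR copies.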

Additional observations from a re-analysis of the deposited data

How the results depend on the processing

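The count of 0 release machinery genes held in edgeR with the mouse as a replicate block, in DESeq2, under each filter and scaling, and without each library or mouse in the fit without the block. In the block fits without 1 mouse, chosen after seeing the data, it ran from 0 to 2. Synpr passed without mouse 1, where 250 of all genes passed, and Syt2 and Sv2c without mouse 3, where 269 of all genes passed. These fits leave few libraries from which to estimate the spread within mice. The count over all genes, 26, was 183 with the replicate block, 89 in DESeq2 and 109 without a filter, and in the fit without the block ran from 0 to 39 with libraries or mice left out, with 0 without contralateral 2 or mouse 2. In the block fits it ran from 174 without mouse 2 to 269 without mouse 3. The median of the 43 genes stayed below 0 in all of these fits, from -0.22 to -0.03. CircRNAs called ran from 0 to 2 with libraries left out, none of them of the release machinery, and no ratio was called in any fit. Of the 43 genes 21 kept their sign in all 20 alternatives.

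Some signs turned. Within the libraries low in mt-Rnr1, Slc17a7 was at 0.14, Rab3a at 0.12, Rims2 at -0.12, Unc13c at -0.10 and Cadps at -0.042. Within the high ones Slc17a6 was at -0.016, and with the mt-Rnr1 set as a term Rims2 was at -0.019. With libraries or mice left out, log2 fold changes ran from -0.038 to 0.17 for Cplx2, -0.18 to 0.20 for Slc17a6, -0.45 to 0.0022 for Rab3a, -0.020 to 0.17 for Rims2, -0.0011 to 0.30 for Unc13c and -0.026 to 0.060 for Cadps. Among circRNAs they ran from -0.079 to 0.25 for Rims2 exons 20 to 22, -0.26 to 0.45 for Rims1 exons 30 to 32, -0.19 to 0.21 for Erc2 exons 13 to 19, -0.34 to 0.67 for Rims2 exons 21 to 22, -0.51 to 0.27 for Rims1 exons 6 to 9 and -0.13 to 0.18 for Rims2 exons 5 to 13. Erc2 exons 13 to 19 was at 0.00013 with the block, 0.11 with library sizes from the gene table, 0.028 without a filter, 0.042 at a mean of at least 10 reads and 0.12 with the deposited normalized values. Rims2 exons 5 to 13 was at 0.11 with library sizes from the gene table, 0.029 without a filter, 0.046 at a mean of at least 10 reads and 0.00030 with the deposited values, where Rims2 exons 21 to 22 was at -0.13. The cause was not tested. Standard errors of circRNAs limit what could be seen at this depth.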
